A study of Homo sapiens with 28 samples.

Results

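With IL-13, the transcription factor STAT6 was called at 1131 intronic regions of EPC2 cells where it was called neither in untreated cells nor together with the vitamin D receptor VDR. These 1131 regions are 23.6% of the 4802 STAT6 regions of the IL-13 library. A region belongs to the set if the authors' annotation places it in an intron, if it shares no base with any of the 1126 STAT6 regions of untreated cells, and if it shares none with the 9224 VDR regions of vitamin D treated cells. The regions were chosen by the STAT6 and VDR peak calls, so their STAT6 values are a description and support nothing. The other STAT6 regions of the IL-13 library were 1701 intergenic, 432 upstream, 188 promoter and 131 exonic IL-13-only regions, 306 IL-13-only regions that shared bases with VDR, and 913 regions that were also called in untreated cells.

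IL-13 is a type 2 cytokine of allergic inflammation; its receptor activates JAK kinases, which phosphorylate STAT6, and STAT6 dimers then enter the nucleus and bind DNA at paired TTC and GAA letters. Much of what a cytokine-activated STAT binds lies away from gene starts, in enhancers, which are often found inside introns. Active enhancers and promoters carry acetylated histone H3 (H3K27ac, H3K9ac), whereas H3K4me3 marks promoters, and in esophageal epithelium IL-13 is known as a driver of eosinophilic esophagitis.

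EPC2 is a line of immortalised epithelial cells from human esophagus. Cells received IL-13 at 100 ng/ml, IL-13 with vitamin D at 100 nM, or vitamin D alone, each for 6 h, or were left untreated. RNA was sequenced in 3 samples of each of the 4 groups, and chromatin was immunoprecipitated in 16 libraries, 1 for each condition: STAT6 with IL-13 and untreated, VDR with vitamin D and untreated, and H3K27ac, H3K9ac and H3K4me3 in all 4 groups. With 1 library a condition, no chromatin difference between treatments has a replicate check or a test, and differences are given as ratios past 1.5; whether the 3 RNA samples of a group were separate cultures is not given in the labels.

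The pileup, the number of fragments stacked at a summit, depends on library depth. The background recovered from the peak caller's values, a relative measure of that depth, was 3.05 for STAT6 with IL-13 and 1.46 for STAT6 untreated, a ratio of 2.08. For H3K27ac it was 0.512 with IL-13, 0.565 with both, 0.731 with vitamin D and 1.40 untreated, and for H3K9ac it lay between 0.389 and 0.485. Of 13 squamous epithelial markers in the RNA tables, all but EPCAM reached 1 RPKM in untreated cells, and their summed level in the authors' deposited tables was 36822 RPKM with IL-13 against 35297 RPKM untreated. Keratins make up most of that sum; IVL, a differentiation marker, was at 12.7 RPKM with IL-13 against 50.3 RPKM untreated, and KRT13 at 96.7 against 201.5 RPKM, in the authors' deposited tables. Of the leukocyte, endothelial and glandular markers none reached 1 RPKM in untreated cells, and of 6 fibroblast markers COL1A1 alone did in the authors' deposited tables, with 9.84 RPKM with IL-13 against 15.2 RPKM untreated; the part of fewer cells of a type and of less RNA per cell cannot be told apart in such bulk samples.

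Most of the intronic regions were weak peaks. Their pileup ranged from 12 to 104 fragments with a median of 17, their fold enrichment from 3.21 to 25.9 with a median of 4.45, and their width from 150 to 2307 bases with a median of 321; 884 had a single summit, 198 had 2 and 49 had more. The lowest pileup called in the untreated STAT6 library was 9. When the IL-13 pileups were scaled to the depth of that library, 480 regions reached 9 and 651 did not, so for the 651 a peak of the same relative height would have been below what was called in untreated cells. The part of depth in those 651 was not tested.

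The highest pileup lay in DEC1, a gene named for its deletion in esophageal cancer (chromosome 9, 117928579 to 117930301, hg19), with 104 fragments. The files list this gene under a name that had been turned into a date, and it was matched by its old symbol and chromosome. Next came regions in DUOX1 (94), a hydrogen peroxide producing oxidase, GNAL (89), a G protein subunit, TMEM45B (81), SERINC5 (80) and ANO1 (68), a calcium-activated chloride channel. PLXNA2 (66), a semaphorin receptor, PHLDB2 with the overlapping gene PLCXD2 (63), the receptor gene GPR158 (60) and the protocadherin gene PCDH7 (60) completed the 10 highest. Of these 10 regions, 8 had an H3K27ac summit within 1000 bases of the STAT6 summit both with IL-13 and untreated, GPR158 had one in the 2 IL-13 libraries alone, and SERINC5 had none.

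Some regions lay close to the limits of the rule. The closest to an untreated STAT6 region were 2 in the BAGE genes, at gaps of 48 and 72 bases, and 1 in LOC642236, at 85 bases. The closest to a VDR region were in PDE4DIP, KCNQ5 and TTC7A, at gaps of 22, 28 and 64 bases. Just outside were 94 intronic regions that shared bases with untreated STAT6, the smallest overlap being 16 bases in GUSBP1, and 93 that shared bases with VDR, the smallest being 17 bases in BICD2.

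The regions lay in long genes, away from the annotated gene starts. Promoter regions carry a label of their own, so a distance from gene starts follows in part from the rule. The part of the rule in gene length was not tested. None had its summit within 1 kb of the annotated gene start, 202 (17.9%) lay within 10 kb and 493 (43.6%) beyond 50 kb, with a median distance of 40.2 kb. By position, 467 were in the first part of the gene with its length split in 3 equal parts, 390 in the middle part and 274 in the last part. The 662 host genes tested for RNA had a median length of 99.8 kb, against 23.4 kb over all 15172 genes tested. The nearest VDR region was a median of 67.2 kb away; 194 regions had one within 10 kb and 37 within 1 kb.

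A subset was packed into few loci. There were 265 regions (23.4%) with at least 2 others within 50 kb, here called tracts, whereas 690 had no other within that distance. PDE4DIP, which encodes a centrosome and Golgi scaffold protein, held 35, spread over chromosome 1, 144986549 to 145072478. The BAGE cluster of chromosome 21 held 43, in 2 annotation groups of 23 and 20; the zinc finger genes ZNF595 and ZNF718, which overlap, held 12, and the histone methyltransferase gene MLL3 (KMT2C) held 14. BAGE genes and parts of KMT2C and PDE4DIP have near copies elsewhere in the genome, so reads there may be placed uncertainly. H3K27ac with IL-13 overlapped 9 of the 35 PDE4DIP regions and none in the BAGE, MLL3 and ZNF595 loci, and RNA of BAGE2 was listed at 0 RPKM in all groups of the authors' deposited tables.

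H3K27ac was called at many of the regions, also in cells without IL-13, and H3K9ac at fewer. H3K27ac overlapped 667 regions (59.0%) with IL-13 against 694 (61.4%) untreated, and 703 (62.2%) with both against 532 (47.0%) with vitamin D alone. H3K9ac overlapped 358 (31.7%) with IL-13 against 243 (21.5%) untreated, and 337 (29.8%) with both against 256 (22.6%) with vitamin D alone. H3K4me3, the promoter mark, overlapped between 41 and 53 regions in its 4 libraries, at most 4.69%, whereas it overlapped 67.6% of the 188 IL-13-only promoter regions with IL-13. In the 1701 intergenic IL-13-only regions H3K27ac was present at 40.4% with IL-13 against 40.5% untreated.

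The overlap with acetylation was larger at higher STAT6 peaks, which were also wider, with a median of 877 bases in the highest class against 205 bases in the lowest; the part of width was not tested. Of the 135 regions with a pileup of 31 to 104, H3K27ac overlapped 90.4% with IL-13 against 78.5% untreated, and 91.9% with both against 68.9% with vitamin D alone. Of the 228 regions with a pileup of 12 to 14, it overlapped 45.6% with IL-13 against 52.6% untreated, and 49.6% with both against 38.6% with vitamin D alone. H3K9ac overlapped 63.0% of the highest class with IL-13 against 36.3% untreated, and 47 of the 228 in the lowest class with IL-13 against 32 untreated. Tracts made up 8.15% of the highest class and 35.1% of the lowest; outside tracts H3K27ac overlapped 67.9% of 866 regions with IL-13 against 70.1% untreated, and inside tracts 29.8% of 265 regions with IL-13 against 32.8% untreated.

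**Figure D1:**
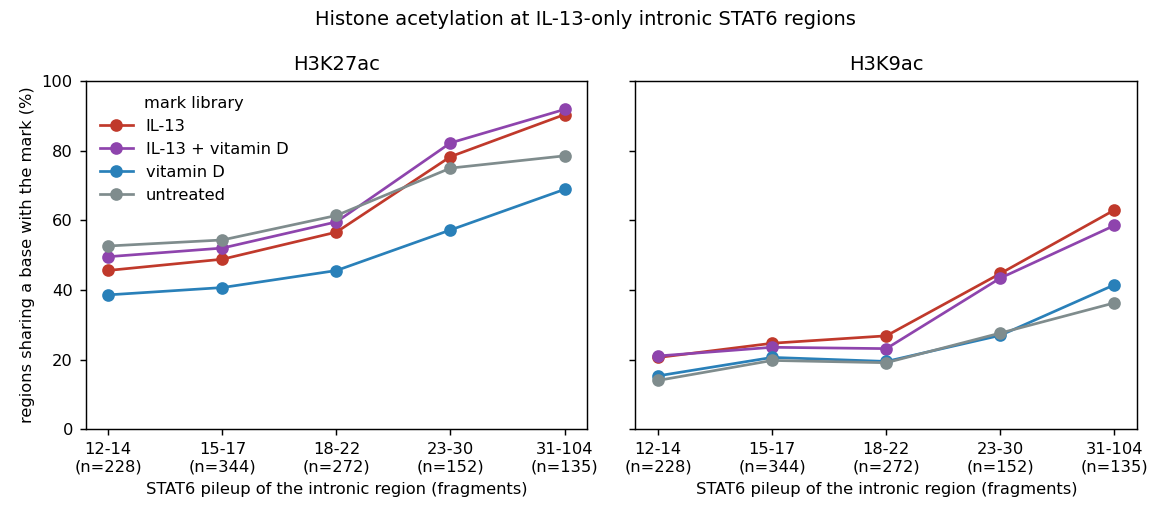
Share of the 1131 intronic STAT6 regions (vertical axis, %) that share a base with an H3K27ac (left) or H3K9ac (right) region in each of 4 libraries, by class of STAT6 pileup (horizontal axis, fragments); each point is 1 library, so there are no error bars. In the class of 31 to 104 fragments the lines with IL-13 lie above those without, at 90.4% and 91.9% against 68.9% and 78.5% for H3K27ac, and in the class of 12 to 14 fragments the untreated H3K27ac line is the highest, at 52.6%.

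A region without acetylation in cells lacking IL-13 and with it in both IL-13 libraries was rare, and the opposite was rarer. H3K27ac overlapped 488 regions in all 4 libraries; 46 (4.07%) had it in both IL-13 libraries alone, and 5 (0.442%) in both libraries without IL-13 alone. The same counts for H3K9ac were 50 (4.42%) and 11 (0.973%). Over the other classes of STAT6 region the first H3K9ac share ran from 2.76% (intergenic) to 4.63% (upstream). The second ran from 0% (exonic) to 1.63% (IL-13-only with VDR). Among intergenic IL-13-only regions H3K27ac was confined to the IL-13 libraries at 2.76% and to the others at 0.588%, and among STAT6 regions also called in untreated cells these shares were 0.548% and 2.63%. The untreated H3K27ac library was the deepest of the 4, with a background of 1.40.

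Several of the 46 lay in genes whose RNA rose with IL-13. By the rules for named genes they include regions in SERPINB4, SERPINB3, ANO1, DPYD and VDR, which rose, and in GPR158, whose RNA was close to 0, and after the values were seen VWF, the von Willebrand factor gene, HRH1, a histamine receptor, and HK1, a hexokinase, were singled out. In VWF the H3K27ac pileup was 15 with IL-13 and 16 with both, in HRH1 it was 8 and 9, and in HK1 it was 16 and 15, with no H3K27ac region in the vitamin D or untreated library. Of the 40 host genes of these regions that were tested, 21 (52.5%) rose with IL-13 and 1 (2.5%) fell in the authors' deposited table (adjusted p under 0.05), where over all 15172 genes 12.3% rose and 14% fell. VWF changed by 1.77, HRH1 by 0.53 and HK1 by 0.62 in log2 units, per the authors' deposited table, all past the threshold. VWF is also an endothelial marker; it was at 1.92 RPKM with IL-13 against 0.514 RPKM untreated, while PECAM1, CDH5, KDR and CLDN5, the other endothelial markers, were at most 0.137 RPKM with IL-13 in the authors' deposited tables; their part in the VWF result was not tested.

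The region in VDR, the gene of the vitamin D receptor itself, was one of the 46 (chromosome 12, 48261234 to 48261957, hg19; STAT6 pileup 35). Its H3K27ac pileup was 10 with IL-13 and 10 with both, and no summit was called within 1000 bases with vitamin D alone or untreated. By the authors' deposited tables VDR was at 11.2 RPKM with IL-13 against 9.12 RPKM untreated, and at 9.74 RPKM with both against 7.62 RPKM with vitamin D alone. Of 43 tested genes of VDR targets and vitamin D metabolism 9 rose and 18 fell with IL-13 in the authors' deposited table, where 12.3% and 14% of all genes did. Of the 5 with a region VDR rose and ASAP2 fell, where 33.2% of all host genes rose and 16.0% fell. In the authors' deposited tables VDR rose by 0.28 with IL-13 (adjusted p = 8.15e-08) and by 0.31 with both over vitamin D (adjusted p = 1.88e-07).

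Where H3K27ac was called in both libraries of a pair, it was more often higher with IL-13 around these regions than elsewhere. In 678 regions the strongest H3K27ac summit within 1000 bases could be compared between the IL-13 and the untreated library. As deposited, the ratio of fold enrichment was at least 1.5 in 61 (8.997%) and at most its inverse in 149 (21.98%), where H3K27ac regions without STAT6, 53568 of them, gave 0.612% and 44%. The median ratio of those regions was 0.692, a shift of -0.53 on the log2 scale. The untreated library was the deeper one, and the part of depth in this shift was not tested. Relative to that median ratio, 194 of the 678 (28.6%) were higher and 6 (0.885%) lower, against 6.71% and 5.83% of the regions without STAT6. Calling floors limit these counts, since the lowest H3K27ac pileup called was 4 with IL-13 and 6 untreated. An intronic region with pileups of 5 with IL-13 against 7 untreated had a scaled ratio of 1.72. A weak untreated summit could hardly be counted as lower, because a smaller IL-13 summit would not be called. The same floors apply to regions without STAT6, and their part was not tested.

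The pair of libraries that both contain vitamin D gave like numbers, and it shares no library with the first. Of 582 regions with a summit in both, 84 (14.4%) were higher by 1.5 with IL-13 and vitamin D than with vitamin D alone as deposited, where 2.64% of 50244 regions without STAT6 were. Relative to the median of those regions 148 (25.4%) were higher and 15 (2.58%) lower, against 6.12% and 6.2%. Of 568 regions with values in all 4 libraries, 72 were higher in both pairs, which is 61.02% of the 118 higher in the first and 50.7% of the 142 higher in the second. Of the 50578 regions without STAT6 with values in all 4 libraries, 547 were higher in both pairs at the same scaling, 17.7% of those higher in the first and 17.5% of those higher in the second. Both scaled ratios were above 1 in 56.3% of the 568 and both below 1 in 11.6%, against 26.4% and 28.4% of the regions without STAT6.

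**Figure D2:**
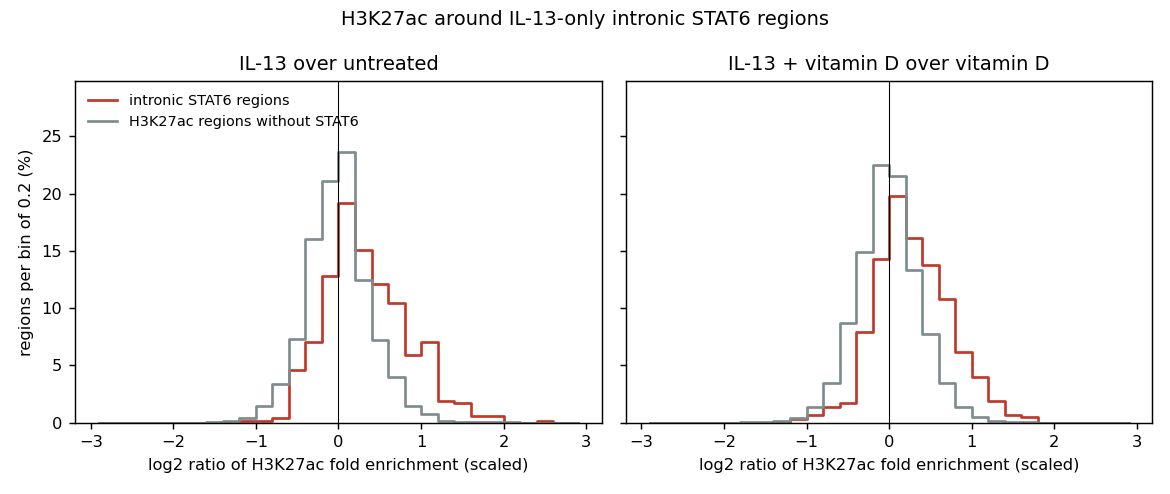
Distribution of the scaled log2 ratio of H3K27ac fold enrichment (horizontal axis; vertical axis, % of regions per bin of 0.2) for intronic STAT6 regions (red) and H3K27ac regions without STAT6 (grey), for IL-13 over untreated (left; 678 and 53568 regions) and IL-13 with vitamin D over vitamin D (right; 582 and 50244 regions). Each ratio compares 1 library with 1 library; the red curves lie to the right of the grey ones in both panels, with 28.6% and 25.4% of the intronic regions at a ratio of 1.5 or more.

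The share with higher H3K27ac was larger at stronger STAT6 peaks. In the class of 31 to 104 fragments 39.0% were higher with IL-13 relative to regions without STAT6 and none lower, in that of 23 to 30 fragments 38.6% were higher, and in that of 12 to 14 fragments 22.2%. Among weak H3K27ac regions without STAT6, those with a vitamin D pileup at or below 13, the median of the intronic regions in that library, 9.57% were higher and 6.16% lower. Other classes of STAT6 region also showed higher H3K27ac. IL-13-only intergenic regions were higher in 32.3%, those also called untreated in 26.5% and promoter regions in 14.1%, and in the second pair the same classes gave 20.7%, 8.09% and 9.55%.

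For H3K9ac, regions called in the IL-13 library alone outnumbered those with a higher summit. Of the regions with a summit in both libraries, 24 of 308 (7.79%) were higher by 1.5 with IL-13 than untreated after scaling, where 4.85% of regions without STAT6 were, and 12 were lower (3.90%, against 7.27%). With both over vitamin D it was 34 of 334 (10.2%), where 5.38% of regions without STAT6 were, and 9 were lower (2.69%, against 6.34%). A summit within 1000 bases was called with IL-13 alone at 210 regions and untreated alone at 48, and with both alone at 158 and vitamin D alone at 70. The H3K9ac backgrounds were 0.485 with IL-13 against 0.389 untreated, and 0.466 with both against 0.469 with vitamin D. The part of depth in these counts was not tested. No such counts are given for regions without STAT6, so whether they are particular to the intronic regions was not tested. H3K9ac overlap was also higher with IL-13 than untreated in the other classes of STAT6 region. It was 21.9% against 14.99% in intergenic IL-13-only regions and 66.5% against 64.9% in promoter ones. In regions also called untreated it was 58.2% against 44.4%, but 54.98% with both against 56.3% with vitamin D.

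The largest H3K27ac ratio lay in OSBPL1A, an oxysterol-binding protein gene (chromosome 18, 21948513 to 21949546, hg19; STAT6 pileup 46). The H3K27ac pileup there was 24 with IL-13 against 9 untreated, and 24 with both, with no summit with vitamin D alone. The counting intervals (95%, exact Poisson, fragments as independent) were 15.4 to 35.7 with IL-13 and 4.12 to 17.1 untreated. They are not scaled for depth, and the untreated library was the deeper one, with a background of 1.40 against 0.512 with IL-13. Their overlap therefore cannot say whether the 2 heights differ. Relative to regions without STAT6 the fold enrichment was 5.73 times higher. SIDT1, an RNA transporter family gene, had pileups of 19 with IL-13 against 11 untreated and 12 with both against 5 with vitamin D. The intron of ZNF462, a zinc finger gene, had 17 with IL-13 against 10 untreated, and 11 with both, with no summit with vitamin D alone. That of ORAI1, the pore of the store-operated calcium channel, had 21 with IL-13 against 13 untreated, and 7 with both, with no summit with vitamin D alone. H3K9ac at ORAI1 had no summit in either IL-13 library, and pileups of 7 with vitamin D alone and 9 untreated. OSBPL1A, SIDT1 and ORAI1 rose in RNA by 0.56, 1.36 and 0.85 in log2 units, per the authors' deposited table, and ZNF462 changed by 0.12 in the same table (adjusted p = 0.197).

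No sign of active chromatin was called at 294 regions (26.0%), which shared no base with any H3K27ac, H3K9ac or H3K4me3 region of the 12 histone libraries. Of these, 133 lay in tracts, and their median pileup was 16. The highest was in SERINC5, which encodes a membrane protein known to restrict retroviruses (chromosome 5, 79482003 to 79483311, hg19). Its pileup was 80 and its fold enrichment 20.0, over 1309 bases, and it lay outside the tracts. SERINC5 RNA was at 14.3 RPKM with IL-13 against 13.6 RPKM untreated in the authors' deposited table (adjusted p = 0.3), and with both over vitamin D it rose by 0.27 in log2 units, per the authors' deposited table (adjusted p = 3.47e-07). Other high regions without a mark lay in TMEM132D (pileup 47) and SGMS1 (43), a sphingomyelin synthase gene.

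Genes that hold these regions rose with IL-13 more often than genes in general. The 1131 regions were annotated to 797 genes, of which 782 were in the RNA table and 662 had a test. Of these, 220 (33.2%) rose and 106 (16.0%) fell at an adjusted p under 0.05 in the authors' deposited table, where 12.3% of all genes tested rose and 14% fell. By 2-fold or more 28 (4.23%) rose and 3 fell in the authors' deposited table, against 0.804% and 0.389% of all genes. The median log2 change in the authors' deposited table was 0.07 in host genes and 0.00274 over all genes. A region was tied to a gene by position only, and no link between the 2 was measured.

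Genes with intronic H3K27ac and no STAT6 region did not show this split. They were not matched to host genes in length, and the part of length was not tested. The 4179 tested genes with an H3K27ac region in an intron and no STAT6 region with IL-13 are a comparison set. The median length was 99.8 kb in host genes against 48.7 kb in these genes, and the median untreated level was 6.95 RPKM against 7.39 RPKM, from the authors' deposited table. Of the 4179, 479 (11.5%) rose and 941 (22.5%) fell in the authors' deposited table. Genes nearest to IL-13-only intergenic regions rose in 149 of 526 (28.3%) and fell in 87 (16.5%) in the authors' deposited table.

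The share of rising genes was larger at strong STAT6 peaks and in genes with more than 1 region. With a highest pileup of 31 or more, 55 of 115 genes (47.8%) rose in the authors' deposited table, and with one of 12 to 14, 24 of 96. Genes with 1 region rose in 30.4%, those with 2 in 46.5% and those with 3 or more in 41.3%, by the authors' deposited table. Where a region reached the untreated limit after scaling, 138 of 350 (39.4%) rose, and where none did, 82 of 312 (26.3%), by the authors' deposited table. Genes with a scaled H3K27ac ratio of 1.5 or more rose in 69 of 152 (45.4%), and the other host genes in 151 of 510 (29.6%), by the authors' deposited table.

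**Figure D3:**
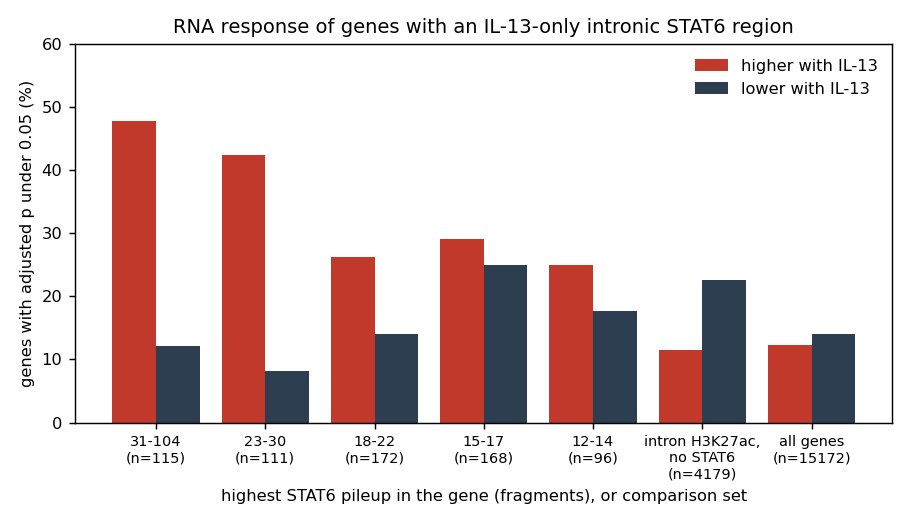
Share of tested genes (vertical axis, %) that were higher (red) or lower (dark) with IL-13 at an adjusted p under 0.05 in the authors' deposited table, for host genes by their highest STAT6 pileup and for 2 comparison sets (horizontal axis, number of tested genes in brackets). Rising genes make up 47.8% at a pileup of 31 or more and 24 of 96 genes at 12 to 14, against 12.3% of all genes.

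With vitamin D present the IL-13 response of these genes was called again. With IL-13 and vitamin D over vitamin D alone, 252 of 656 tested host genes (38.4%) rose and 111 (16.9%) fell in the authors' deposited table, where 16.4% of all genes rose and 16.9% fell. By 2-fold or more 37 (5.64%) rose and 2 (0.305%) fell in the authors' deposited table, where 1.1% and 0.511% of all genes did. Of the genes tested in both comparisons, which share no sample, 195 rose in both of the authors' deposited tables; that is 88.6% of the 220 in the first and 77.4% of the 252 in the second, where over all genes it was 73.7% and 56.5%. The genes that fell in both of the authors' deposited tables were 83, which is 78.3% of the 106 in the first and 74.8% of the 111 in the second, where over all genes it was 78.2% and 66.2%.

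With vitamin D alone, host genes fell more often than they rose. With vitamin D over untreated, 146 of 660 (22.1%) rose and 184 (27.9%) fell in the authors' deposited table, where 17.5% of all genes rose and 15.1% fell. By 2-fold or more 11 (1.67%) rose and 4 (0.606%) fell in the authors' deposited table, where 1.25% and 0.455% of all genes did. Genes with intronic H3K27ac and no STAT6 rose in 23.02% and fell in 19.5% in the authors' deposited table. Genes of IL-13-only intergenic regions leaned as host genes did: 21.2% rose and 25.6% fell in the same table. The rule left out regions that share bases with VDR, and its part in this lean was not tested. The comparison of vitamin D with untreated shares its untreated samples with that of IL-13.

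SERPINB4 and SERPINB3, neighbouring and near-identical protease inhibitor genes, rose strongly and held weak STAT6 regions. SERPINB4 was at 100.1 RPKM with IL-13 against 3.28 RPKM untreated, and at 34.7 RPKM with both against 1.56 RPKM with vitamin D alone, in the authors' deposited tables. SERPINB3 was at 381 RPKM with IL-13 against 106 RPKM untreated, and at 152 RPKM with both against 25.6 RPKM with vitamin D alone, in the authors' deposited tables. SERPINB4 rose by 4.81 and SERPINB3 by 1.82 with IL-13 in log2 units, per the authors' deposited table (adjusted p listed as 0 for both). Their STAT6 pileups were 16 and 15, below the untreated limit after scaling, and each had H3K27ac in both IL-13 libraries alone, at pileups of 7 and 10 in SERPINB4 and 11 and 9 in SERPINB3. Reads of the 2 genes may be split uncertainly.

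ANO1 held 3 regions, 57.2 to 74.5 kb into its 104 kb. ANO1 was at 53.7 RPKM with IL-13 against 7.31 RPKM untreated, and at 41.0 RPKM with both against 4.53 RPKM with vitamin D alone; it rose by 2.83 in log2 units, per the authors' deposited table (adjusted p listed as 0). The strongest region (chromosome 11, 70005292 to 70006506, hg19; pileup 68) carried H3K27ac in every library, at pileups of 25 with IL-13 against 28 untreated and 21 with both against 15 with vitamin D. Relative to regions without STAT6 these are ratios of 2.05 and 1.72. The middle region (pileup 35) had H3K27ac at 8 with IL-13 and 10 with both and no summit in the other libraries, and the first (pileup 22) had 10 with IL-13 against 10 untreated. A further IL-13-only STAT6 region of ANO1, at 71.4 kb, was exonic and so no member.

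**Figure D4:**
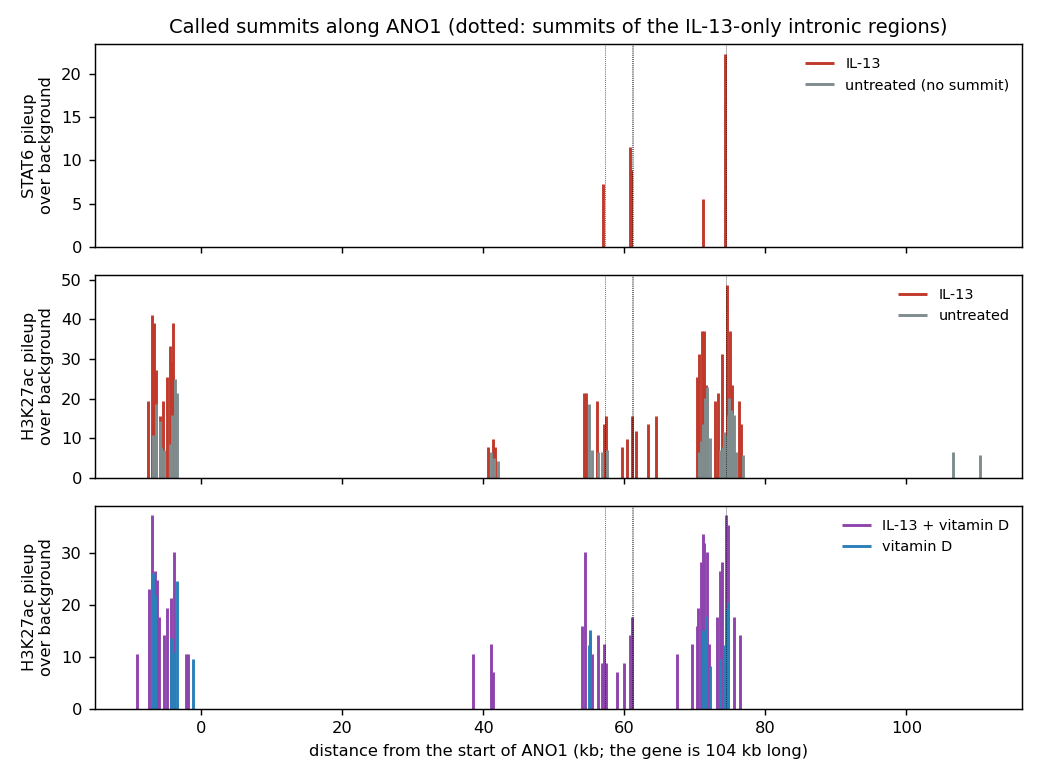
Called summits along ANO1 by distance from the gene start (horizontal axis, kb) and height as pileup over library background (vertical axes): STAT6 with IL-13 and untreated (top), H3K27ac with IL-13 and untreated (middle), and H3K27ac with both and with vitamin D (bottom); bars are single summits of 1 library each. STAT6 has no untreated summit in the gene; H3K27ac around the STAT6 summit at 74.5 kb is present in all 4 libraries, and around that at 61.1 kb in the 2 IL-13 libraries alone.

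Other large rises were in genes of metabolism, signalling and adhesion. HSD3B1, which makes steroid hormones, was at 1.34 RPKM with IL-13 against 0.0216 RPKM untreated, DPYD, the first enzyme of pyrimidine breakdown, at 5.84 against 1.01 RPKM, and PDE6A, a phosphodiesterase subunit known from rod photoreceptors, at 0.396 against 0.0451 RPKM, in the authors' deposited table. EDNRA, an endothelin receptor, was at 3.12 RPKM with IL-13 against 0.638 RPKM untreated, and MAP3K14, the NF-kappaB inducing kinase, at 7.64 against 1.78 RPKM, in the authors' deposited table. CDH26, a cadherin of epithelium, was at 3.32 RPKM with IL-13 against 0.498 RPKM untreated and C1QTNF1, a secreted C1q family protein, at 9.46 against 1.82 RPKM, in the authors' deposited table. All 7 rose by at least 2.004 in log2 units, and all rose again with both over vitamin D, by 1.69 for PDE6A to 3.33 for HSD3B1, in the authors' deposited tables.

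Their chromatin differed. DPYD had a distal region with a pileup of 59 in acetylated DNA and a second, 16387 bases from its start, with H3K27ac in both IL-13 libraries alone; the distal one overlaps the antisense gene DPYD-AS1, listed at 0 RPKM in the authors' deposited tables, whose labels do not say whether counting used strand. The regions in MAP3K14, C1QTNF1, PDE6A and EDNRA had pileups of 31, 46, 27 and 28 and H3K27ac with IL-13 and untreated. As deposited, the ratios of H3K27ac fold enrichment were 1.74, 1.15, 1.07 and 1.27, so MAP3K14 alone passed 1.5. The scaled ratios were 2.52, 1.67, 1.55 and 1.83. The authors' log2 values lie below the ratio of RPKM for low genes such as HSD3B1. The region in HSD3B1 (pileup 21) had no H3K27ac or H3K9ac summit in any library.

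The letters of the intronic regions themselves were not read here, because no sequence of the files' hg19 build was used. Gene promoters from RefSeq (GRCh38.p14; 250 bases before to 50 bases after the gene start) were searched on both strands for the STAT half-site pair TTC and GAA with 4 bases of any kind between them, the spacing STAT6 prefers, or with 3. Either motif reads the same on both strands. Of the 28 host genes that rose by 2-fold or more 17 were matched, and 2 of these (11.8%) held either motif, against 44 of 550 host genes and 13.6% of all 27305 promoters of that length. Both that held one are printed, since HSD3B1 and PDE6A are among the 10 largest rises; capitals mark the match, TTC and GAA with the 4 bases between. A match is a description of these letters, not a binding site.
HSD3B1 promoter (GRCh38.p14, chr1:119506953-119507252, + strand): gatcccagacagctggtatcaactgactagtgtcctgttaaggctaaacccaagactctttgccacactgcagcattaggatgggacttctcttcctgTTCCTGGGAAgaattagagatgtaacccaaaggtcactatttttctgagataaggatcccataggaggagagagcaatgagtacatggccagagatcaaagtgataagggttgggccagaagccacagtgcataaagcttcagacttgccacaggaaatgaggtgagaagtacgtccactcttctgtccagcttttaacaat
PDE6A promoter (GRCh38.p14, chr5:149944744-149945043, - strand): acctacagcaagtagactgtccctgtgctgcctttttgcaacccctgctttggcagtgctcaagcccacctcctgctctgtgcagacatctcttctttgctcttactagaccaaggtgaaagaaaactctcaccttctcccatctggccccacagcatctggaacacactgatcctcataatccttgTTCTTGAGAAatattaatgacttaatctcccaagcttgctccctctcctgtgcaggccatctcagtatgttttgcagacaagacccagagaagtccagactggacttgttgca

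**Figure D5:**
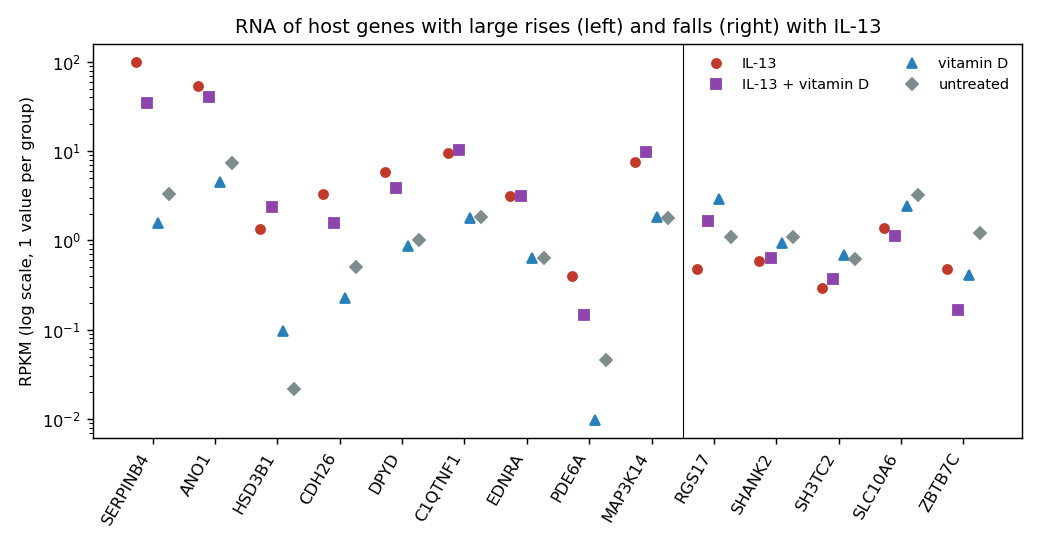
RNA level (vertical axis, RPKM on a log scale; 1 deposited value per group, so no error bars) of 9 host genes with large rises and the 5 with the largest falls with IL-13, in 4 groups. In the 9 genes on the left both IL-13 groups lie above the vitamin D and untreated groups, as in SERPINB4 at 100.1 and 34.7 against 1.56 and 3.28 RPKM.

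The 5 host genes with the largest falls had weak STAT6 regions. ZBTB7C, a zinc finger transcription factor gene, was at 0.477 RPKM with IL-13 against 1.21 RPKM untreated and changed by -1.17 in log2 units, per the authors' deposited table (adjusted p = 1.54e-17). SLC10A6, a transporter of sulfated steroids, changed by -1.09, SH3TC2 by -1.05, the scaffold gene SHANK2 by -0.85 and RGS17, a regulator of G protein signalling, by -0.82 in the authors' deposited table. Their STAT6 pileups were between 12 and 20. Of these 5 genes SLC10A6 alone had H3K27ac summits in all 4 libraries, at pileups of 29 and 26 in its 2 regions with IL-13 against 67 and 53 untreated, which relative to regions without STAT6 are ratios of 1.01 and 1.15, and the regions of ZBTB7C, SH3TC2 and SHANK2 had no H3K27ac or H3K9ac summit. ZBTB7C also changed by -1.35 with vitamin D over untreated, while RGS17 rose by 1.29, in the authors' deposited table.

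A strong STAT6 peak did not always go with a rise in RNA. Of the genes with the 10 highest pileups, DUOX1 was at 78.6 RPKM with IL-13 against 39.8 RPKM untreated (log2 0.95), PCDH7 at 5.67 against 3.12 RPKM (0.84) and PHLDB2 at 32.2 against 17.9 RPKM (0.82), in the authors' deposited table. DEC1 was at 0.514 RPKM with IL-13 against 0.0624 RPKM untreated and rose by 1.06, and PLXNA2 by 0.30, in the authors' deposited table. TMEM45B, with a pileup of 81, was at 29.3 RPKM with IL-13 against 35.7 RPKM untreated and fell by 0.30 in log2 units, per the authors' deposited table (adjusted p = 5.24e-11). GNAL was at 0.268 RPKM with IL-13 against 0.229 RPKM untreated in the authors' deposited table (adjusted p = 0.721), and GPR158 was at most 0.00136 RPKM in any group.

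Of 40 genes listed as responding to IL-13 in esophageal epithelium, 7 held a region, and all 6 of those with a test rose. Among them were SERPINB4, ANO1, CDH26, SERPINB3 and the transglutaminase gene TGM2, which was at 14.6 RPKM with IL-13 against 6.56 RPKM untreated (log2 1.12), in the authors' deposited table. BATF, without a test, was listed at 0 RPKM in the authors' deposited tables. Of the 33 tested genes of the list as a whole 22 rose and 4 fell in the authors' deposited table, with a median of 1.12, against 12.3% and 14% of all genes. The list was made of IL-13 responders, with earlier results of these data known. Its rises are therefore a description and support nothing.

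The components of the IL-13 pathway itself moved little where they held a region. Of 33 genes of receptors, JAKs, STATs and feedback inhibitors, 6 rose and 8 fell with IL-13 in the authors' deposited table, and 3 held a region. Over all genes 12.3% rose and 14% fell. IL4R, a chain of the receptor, was at 33.1 RPKM with IL-13 against 38.3 RPKM untreated and changed by -0.22 in the authors' deposited table (adjusted p = 8.66e-07). PTPN1, a tyrosine phosphatase of this pathway, changed by -0.02 (adjusted p = 0.78) according to the authors' deposited table. With vitamin D over untreated PTPN1 rose by 0.89 and IL4R by 0.72 in the authors' deposited table.

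Epithelial structure genes went both ways. Of 77 tested differentiation genes 5 rose and 56 fell with IL-13 in the authors' deposited table, and the 2 with a region, the sulfotransferase gene SULT2B1 (-0.59) and the lipid transporter gene ABCA12 (-0.65), fell. Of 51 focal adhesion and actin genes 9 rose and 22 fell, and of the 14 with a region 6 rose and 2 fell, in the authors' deposited table, where 33.2% of all host genes rose and 16.0% fell. MYO1E, an unconventional myosin with 6 regions of pileup 14 to 24, was at 54.8 RPKM with IL-13 against 34.8 RPKM untreated and rose by 0.63 in the authors' deposited table (adjusted p = 4.85e-73). LIMA1 rose by 0.21, TNS4 by 0.28 and RND3 by 0.23, while ITGA2 changed by -0.40, in the authors' deposited table.

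Among adhesion receptors and junctions the values were small apart from CDH26. Of 25 tested basal cell genes 9 rose and 12 fell, and of the 5 with a region 2 rose and 2 fell, in the authors' deposited table. There 33.2% of all host genes rose and 16.0% fell, and 12.3% of all genes rose and 14% fell. The hyaluronan receptor gene CD44 was at 143 RPKM with IL-13 against 96.2 RPKM untreated and rose by 0.55, and the integrin gene ITGA6 by 0.10, in the authors' deposited table. Of 44 tested junction genes 10 rose and 20 fell; with a region, DSG3, a desmosomal cadherin, rose by 0.19, DSP, desmoplakin, changed by -0.17 and PVRL1, a nectin, by -0.34, and CLDN1 (0.08, adjusted p = 0.107) missed the threshold, per the authors' deposited table.

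Of the 68 tested transcription factors of squamous epithelium 14 rose and 35 fell in the authors' deposited table, where 12.3% and 14% of all genes did. Of the 6 tested that held a region 4 rose and 2 fell, where 33.2% of all host genes rose and 16.0% fell. RUNX2 had the strongest region of these (chromosome 6, 45413098 to 45414325, hg19; pileup 60, H3K27ac pileup 15 with IL-13 against 28 untreated, a scaled ratio of 1.26) and was at 2.42 RPKM with IL-13 against 1.48 RPKM untreated, a rise of 0.66 in the authors' deposited table. EHF rose by 0.35 and GRHL2 by 0.15, while RORA changed by -0.75, in the authors' deposited table.

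Genes of growth factor signalling held a region more often than genes in general. Of 48 EGF receptor and MAP kinase regulators with RNA values 8 held one, and of 40 TGF-beta and SMAD genes 5 did. Over all genes with RNA values it was 782 of 23533. The part of gene length in these shares was not tested. Of the 8 EGF receptor and MAP kinase regulators with a region 1 rose and 4 fell in the authors' deposited table. There 33.2% of all host genes rose and 16.0% fell, and 12.3% of all genes rose and 14% fell. The ligand gene TGFA was at 41.5 RPKM with IL-13 against 55.1 RPKM untreated (-0.42) and EGFR at 37.0 against 41.5 RPKM (-0.19). Of the 46 tested genes of the list of EGF receptor and MAP kinase regulators 4 rose and 24 fell in the authors' deposited table. Of 39 tested TGF-beta and SMAD genes 5 rose and 12 fell in the authors' deposited table. Of the 5 with a region SMAD5 rose by 0.36, and FSTL3 (-0.35) and LTBP2 (-0.38) fell, in the authors' deposited table. None of the 41 genes of the NF-kappaB list held a region. In a list this short that is close to the share of 782 in 23533 genes. The list does not hold MAP3K14, which held one. Of 3 interferon response genes with a region, ISG20 and EIF2AK2 among them, none was called in the authors' deposited table.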

How the data were processed

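The authors deposited peak lists with, per the file headers, summit pileup (a coverage signal), fold enrichment over background (a ratio), and −log10 p and q; trimming with Trim Galore, alignment with Bowtie or STAR, peak calling with MACS2 and the builds hg19 and GRCh37 are named in the submitters' processing notes, without versions. They also deposited RNA tables with 1 RPKM per group, a log2 fold change, a p-value and an adjusted p-value; no source used here names the test behind them. One RNA table is named for another comparison than its header gives, and the header was followed. An adjusted p of 1 was taken as not tested. Rows without a q value were left out, and a region kept its highest summit. Marks were compared at the strongest summit within 1000 bases. Fold enrichment was the main measure and was also scaled by the median ratio of H3K27ac regions without STAT6. Intervals are 95% exact Poisson and cover counting error only. Code was tested on simulated data and run in Python 3.11.15 with pandas 2.3.3, numpy 2.4.6 and scipy 1.17.1. Genes were named by fixed rules: the 10 highest pileups, the 10 largest rises and 5 largest falls in RNA, the 5 largest H3K27ac ratios, members of the gene lists, and regions at the edges of the rule. The members and lists were chosen with earlier results of these data known. A few genes that these rules name are not reported here.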

Additional observations from a re-analysis of the deposited data

How the results depend on the processing

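With −log10 q of at least 5 the set held 559 of the 1131 regions, and 480 reached the lowest untreated peak at its depth. H3K27ac with IL-13 overlapped 347 regions, in place of 667, when its own −log10 q had to reach 10. The 61 regions with higher H3K27ac became 194 with scaled fold enrichment, 169 of them outside tracts, 214 with scaled pileup, and 139 when regions without an untreated summit counted as higher. The 220 host genes that rose became 28 at 2-fold and 138 with regions that reached the untreated limit. The 106 that fell became 3 at 2-fold, 47 with −log10 q of at least 5 and 38 with regions that reached the limit. The other 14 alternatives stayed within 1.5 times of their count. The alternatives on tracts and on the untreated limit were chosen after seeing the data. No paired analysis was possible because the tables hold 1 value per group, and for the same reason no sample could be left out. The alternatives on STAT motifs in the regions were not run, since no hg19 sequence was used here. At the depth of the untreated library 651 regions lay below its lowest called pileup; the part of depth was not tested.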
